A study of Mus musculus with 11 samples.

Results

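The 4 mouse Notch receptor genes, Notch1, Notch2, Notch3 and Notch4, and the human NOTCH3 transgene were examined across the cell types of the mouse cerebrovasculature. These 5 members were found by their symbols among the 32287 genes of the deposited count tables, and all 5 had at least 1 unique molecular identifier (UMI, a tag that marks 1 captured transcript). Single-cell RNA sequencing (10x Genomics 3' droplet libraries, 1 per mouse) had been done on brain microvascular fragments captured with beads that bind CD31, which endothelial cells carry on their surface. The CADASIL mice, labelled Tg350 and called R182C-TgN3 here, carry human NOTCH3 with the R182C variant, and the control mice, labelled Tg100 and called WT-TgN3, carry wild-type human NOTCH3. There were 6 R182C-TgN3 mice (3 of 6 months and 3 of 9 months) and 5 WT-TgN3 mice (3 of 6 months and 2 of 9 months), all untreated and of both sexes, and all of them also had the mouse Notch3 gene. These are separate transgenic lines, so the R182C variant, the dose of the transgene and any other difference between the lines cannot be told apart. No mouse without the transgene was analysed here. Mice are named by genotype, age and the number in their label, as in R182C-TgN3 6m-1.

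The labels give 4 batches. Batches 1 (9 months) and 3 (6 months) each held 2 mice of either genotype, batch 4 (6 months) held 1 of each, and batch 2 (9 months) held R182C-TgN3 9m-3 alone, so age and batch cannot be told apart. The 11 libraries held 66658 barcodes with 17550806 to 64215050 UMIs each, and the median per kept cell was 3526 to 7687 UMIs. Of 58579 kept cells, 37365 passed a marker gate as endothelial cells (EC), 2079 as smooth muscle cells (SMC), 524 as pericytes (PC) and 14006 as microglia, and 2590 took no type. Within EC, 25103 cells were assigned to capillary, 2929 to arterial, 2426 to venous and 1084 to fenestrated EC, and 5823 had no clear subtype. No Notch gene was used in the gates. In SMC the 12 SMC markers summed to 31372 to 40139 CPM (counts per 1e6 UMIs of that mouse and cell type) and the 7 pericyte markers to 357 to 564 CPM, against 17389 to 22368 CPM for the pericyte markers in PC. All 10 endothelial markers were at 10 CPM or more in EC on average, and they summed to 17756 to 20861 CPM. In PC all 10 also reached 10 CPM, with sums of 471 to 2074 CPM. In SMC 9 did, with sums of 189 to 821 CPM. The part of endothelial RNA in the PC and SMC levels below was not tested. The gates used all of these markers, so their levels are no independent check of the types. WT-TgN3 9m-2 had 16 PC, under the minimum of 20 cells per mouse and type, and was left out of PC values, which therefore come from 6 R182C-TgN3 and 4 WT-TgN3 mice.

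Notch receptors are single-pass membrane proteins that are activated by ligands of the Delta-like and Jagged families on a neighbouring cell. Ligand binding opens the receptor to cleavage by ADAM proteases and then by gamma-secretase, and the released intracellular domain enters the nucleus, binds RBPJ and Mastermind-like proteins and switches on genes of the Hes and Hey families. In blood vessels, Notch1 and Notch4 are known as endothelial receptors, Notch1 and its ligand Dll4 being needed for arterial identity, whereas Notch3 is known as the receptor of SMC and pericytes and is needed for the maturation of arterial SMC. Notch2 is found in many cell types. NOTCH3 variants that change the number of cysteines in its extracellular repeats cause CADASIL, a hereditary disease of small brain vessels.

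The 4 mouse genes lie on 3 chromosomes (GENCODE vM21, GRCm38). Notch1 (ENSMUSG00000026923) spans chr2:26457903-26516663 on the minus strand, Notch2 (ENSMUSG00000027878) chr3:98013527-98150361 on the plus strand, Notch3 (ENSMUSG00000038146) chr17:32120820-32166852 on the minus strand and Notch4 (ENSMUSG00000015468) chr17:34564268-34588503 on the plus strand. Human NOTCH3 is listed in the count tables by its symbol only. Notch3 and Notch4 lie on the same chromosome and had their highest levels in different cells, Notch3 in mural cells and Notch4 in arterial EC. The 250 bases before the RefSeq start of these 2 are therefore shown, 5′ to 3′ on the strand of the gene. The sequences are from RefSeq on GRCm38.p6, and all 4 mouse genes matched by symbol. The RefSeq starts differ from the GENCODE spans above. The Notch4 window ends at 34564294 and the Notch2 window at 98013537, both past the GENCODE start. The Notch1 window (chr2:26503823-26504072) lies inside the GENCODE span of Notch1. Capitals mark GGGCGG, the letters of a GC box, and GGAA, the core of sites of the ETS family, each on either strand.
Notch3 (chr17:32166891-32167140, minus strand): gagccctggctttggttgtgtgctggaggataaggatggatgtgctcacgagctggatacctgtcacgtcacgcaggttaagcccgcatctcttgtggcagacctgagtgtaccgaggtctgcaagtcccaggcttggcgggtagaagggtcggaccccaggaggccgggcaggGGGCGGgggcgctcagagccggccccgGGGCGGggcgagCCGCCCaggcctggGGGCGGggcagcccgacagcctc
Notch4 (chr17:34564045-34564294, plus strand): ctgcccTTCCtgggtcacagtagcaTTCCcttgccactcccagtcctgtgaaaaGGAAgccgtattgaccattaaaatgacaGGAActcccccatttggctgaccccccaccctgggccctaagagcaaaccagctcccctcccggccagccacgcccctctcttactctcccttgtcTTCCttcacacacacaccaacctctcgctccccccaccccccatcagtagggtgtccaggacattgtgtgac
The Notch3 window had 68.8% G and C, 4 matches to GGGCGG and 0 to GGAA, whereas the Notch4 window had 58.4% G and C, 0 matches to GGGCGG and 5 to GGAA. The Notch1 and Notch2 windows had 5 matches each to GGGCGG and 4 and 3 to GGAA. Of all 32851 mouse promoter windows of this length, 32.7% held GGGCGG and 93.4% held GGAA. The core TGGGAA of RBPJ sites, which itself contains GGAA, was in 21.6% of the windows and in 0 of these 4. A match is only a run of letters, and its absence says only that the letters are not in this window.

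Each receptor had its own order of cell types, which is given here with every cell type's mean level in CPM over mice of both genotypes. Levels are compared between cell types for 1 gene at a time, and not between receptors, since UMIs were not corrected for differences between transcripts. Neighbours in each order were compared within mice by an exact sign-flip permutation test of log2(CPM + 1), two-sided, with Benjamini-Hochberg adjustment over the 30 neighbouring pairs, and 19 of them passed 0.05. By mean log2(CPM + 1) over mice, all 5 members kept their highest cell type under every alternative gate, filter and left-out mouse. The order below the highest type changed. Within mice, the Notch1 step from PC to fenestrated EC turned its sign in 1 of 8 alternatives. The types stood in the same neighbouring places in 19 of 30 pairs with Leiden clusters, 23 with the stricter gate and 24 with the looser gate. Of the 19 pairs that passed, 14 passed in all 8 alternatives, and of the 11 others 6 passed in at least 1 of them.

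Notch3 was a mural gene. It was at 1078 ± 150 CPM (SD, n = 10) in PC and 623 ± 71.3 CPM (SD, n = 11) in SMC, a 1.73-fold step (exact permutation test, adjusted p = 0.00488). SMC were 55.1-fold above the next type, arterial EC at 11.3 ± 16.5 CPM (SD, n = 11; adjusted p = 0.00366, exact permutation test). Below these, venous EC (5.41 CPM), capillary EC (2.73 CPM), fenestrated EC (2.75 CPM) and microglia (0.886 CPM) were not separated from their neighbours, with exact permutation adjusted p from 0.0815 to 0.454. The step from arterial to venous EC passed in 4 of 8 alternatives, and with the stricter gate venous EC were higher (log2 difference -0.787, exact permutation test, adjusted p = 0.199). The human transgene followed the same order at the top, with 932 ± 453 CPM (SD, n = 10) in PC, 154 ± 117 CPM (SD, n = 11) in SMC and 3.03 ± 2.69 CPM (SD, n = 11) in arterial EC. Its step from PC to SMC was 6.05-fold (exact permutation test, adjusted p = 0.00488), and that from SMC to arterial EC 50.8-fold (exact permutation test, adjusted p = 0.00366). In fenestrated EC 9 of 11 mice had no NOTCH3 UMI, and the 2 others had 1 each. In microglia NOTCH3 was at 0.532 ± 0.519 CPM (SD, n = 11), from 42 UMIs in all.

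Notch4 was an endothelial gene. It was highest in arterial EC, with 126 ± 14.1 CPM (SD, n = 11), followed by fenestrated EC with 106 ± 13, capillary EC with 48.6 ± 4.52 and venous EC with 24.4 ± 6.40 CPM (SD, n = 11 each). All 3 of these steps passed the test, with exact permutation adjusted p of 0.00628, 0.00366 and 0.00366. The first of them, between arterial and fenestrated EC, did not pass in 3 of 8 alternatives, with adjusted p of 0.610 with Leiden clusters, 0.176 with the mean over cells of CPM and 0.0527 with the stricter gate (exact permutation tests). PC, with 22.1 ± 9.08 CPM (SD, n = 10), did not differ from venous EC beyond the spread over mice (exact permutation test, adjusted p = 0.467), although this PC level rests on 39 UMIs in 10 mice. Microglia had 4.56 CPM and SMC 2.64 CPM, the latter from 46 UMIs.

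Notch1 was present in every type. PC had 360 ± 62.5 CPM (SD, n = 10), fenestrated EC 300 ± 44.6 and arterial EC 269 ± 29.5 CPM (SD, n = 11 each), and these 3 neighbours were not separated (exact permutation test, adjusted p = 0.0815 and 0.0949). With the mean over cells of CPM both steps passed (exact permutation test, adjusted p = 0.0493 and 0.0195). The first also passed with Leiden clusters, with the looser gate and without R182C-TgN3 6m-3 (exact permutation adjusted p = 0.0410, 0.0200 and 0.0146), and the second with the stricter gate and without WT-TgN3 9m-2 (0.0370 and 0.0307). The first step was not stable in direction either. In 1 of 8 alternatives its mean within-mouse difference turned its sign, with fenestrated EC above PC. Over these alternatives its exact permutation adjusted p reached 0.813. Capillary EC (158 ± 13.1 CPM), venous EC (129 ± 16.5), SMC (84.5 ± 9.55) and microglia (36.4 ± 3.10; SD, n = 11 each) followed, each below the type before it with exact permutation adjusted p = 0.00366. Every SMC value, from 68.0 to 101 CPM, was under every PC value, from 245 to 463 CPM.

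Notch2 was highest in microglia, with 117 ± 15.6 CPM (SD, n = 11), then in SMC with 83.6 ± 15.5 (SD, n = 11) and PC with 46.6 ± 17.0 CPM (SD, n = 10). Both steps passed the test (exact permutation test, adjusted p = 0.00628 and 0.00781). All endothelial subtypes were lower, between 10.8 CPM in fenestrated and 21.0 CPM in venous EC, and the step from PC to venous EC was 2.22-fold (exact permutation test, adjusted p = 0.0207). Venous and capillary EC were not separated in this order (exact permutation test, adjusted p = 0.0809), but were without WT-TgN3 9m-2 (exact permutation adjusted p = 0.0276). Notch2 was thus the only member whose highest level was outside the mural and endothelial cells among the 7 types compared.

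**Figure D1:**
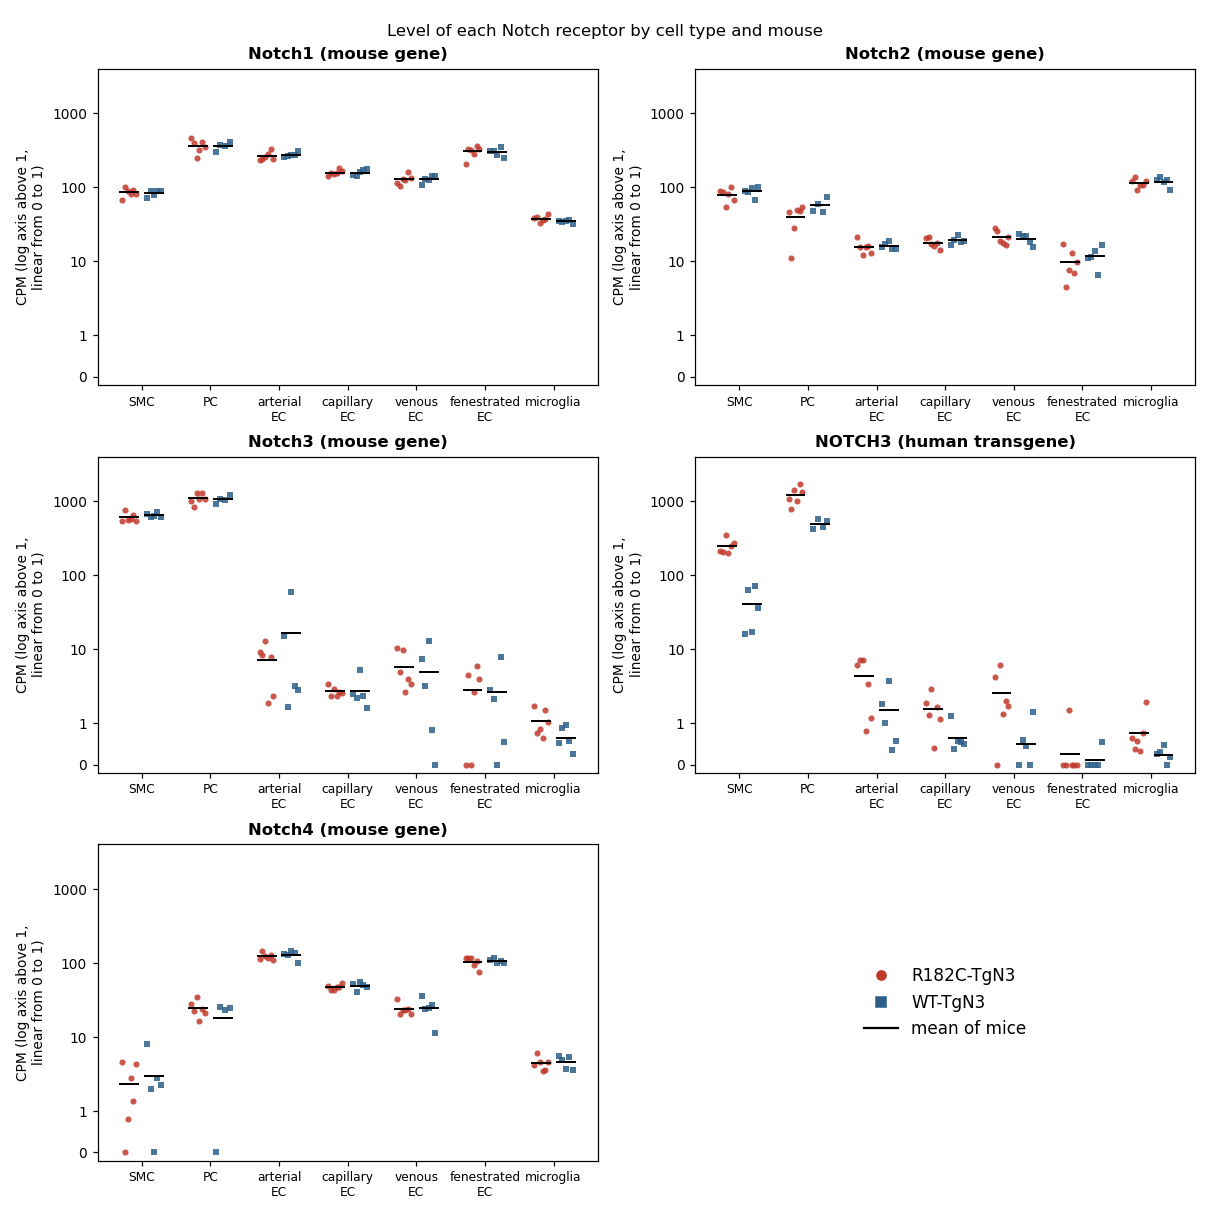
Level of each Notch receptor (CPM, log axis above 1 and linear from 0 to 1) in 7 cell types, with 1 point per mouse (red circles R182C-TgN3, blue squares WT-TgN3) and bars at the mean. Notch3 and NOTCH3 stand highest in PC and SMC, Notch4 in arterial and fenestrated EC, Notch2 in microglia, and only NOTCH3 in SMC and PC shows separate ranges for the genotypes in the mural cells.

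The patterns were compared with those of 11774 other genes that reached 10 CPM in at least 1 type and were in no marker list, by Pearson's r of the mean log2(CPM + 1) over the 7 types. These r values are descriptions over 7 points that share libraries and depth. The 5 genes most like Notch3 were Plce1 (r = 0.9980), Ednra, the endothelin A receptor (r = 0.9979), Sdc2 (r = 0.9975), Slc38a11 (r = 0.9969) and Rgs6 (r = 0.9965). Ednra was at 309 CPM in SMC and 440 CPM in PC, and at 4.52 CPM in arterial EC. The genes most like NOTCH3 included Gpc3 (r = 0.9974), Rab36 (r = 0.9968), 3010001F23Rik (r = 0.9965) and P2ry14 (r = 0.9965), all with more in PC than in SMC. P2ry14 was at 608 CPM in PC and 59.2 CPM in SMC. The genes most like Notch4 were Smpdl3a (r = 0.9957), Klf13 (r = 0.9811), Eng, the TGF-beta co-receptor endoglin (r = 0.9744), Dnajc14 (r = 0.9732) and Gipc3 (r = 0.9706). Those most like Notch1 were Ifi203, Ahctf1, Mpv17, Zfp287 and Tbcel (r = 0.9739 to 0.9771), and those most like Notch2 were Serpine2, Trim36, Vapa, Bcl6 and Camsap1 (r = 0.9717 to 0.9753). Between members, r was 0.98 for Notch3 and NOTCH3, 0.74 for Notch1 and Notch4, and -0.94 for Notch2 and Notch4.

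In mural cells the transgene was read beside the mouse gene in the same libraries. The 2 genes are orthologues, and whether any reads fit both, and how the counting would have split them, was not analysed here. In SMC of the R182C-TgN3 mice, NOTCH3 was at 212, 208 and 353 CPM (6m-1, 6m-2, 6m-3) and 198, 251 and 269 CPM (9m-1, 9m-2, 9m-3). In SMC of the WT-TgN3 mice it was at 16.1, 63.2 and 16.9 CPM (6m-1, 6m-2, 6m-3) and 70.6 and 36.3 CPM (9m-1, 9m-2). Every R182C-TgN3 value was above every WT-TgN3 value, and the log2 fold change was 2.47 ± 0.27 (standard error, SE, 5.53-fold, edgeR adjusted p = 1.1e-04). NOTCH3 was the 1 gene called among 8811 tested in SMC, that is 0.0113% of genes, so 1 of the 4 members tested there passed.

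In PC of the R182C-TgN3 mice, NOTCH3 was at 1074, 774 and 1413 CPM at 6 months and 1016, 1716 and 1346 CPM at 9 months, in the same order of mice. In PC of the WT-TgN3 mice it was at 415, 581 and 446 CPM at 6 months and at 543 CPM in 9m-1. Again no value overlapped between the genotypes, with a log2 fold change of 1.33 ± 0.19 (SE, 2.52-fold, edgeR adjusted p = 7.2e-04). It was the 1 gene called among 2556 tested in PC (0.0391%), and 1 of the 3 members tested. DESeq2 also called 1 gene in SMC and 1 in PC. The number called in PC was 16 with no filter on low counts and 3 with batch as a covariate.

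Mouse Notch3 did not pass the test between genotypes in either mural type. In SMC it ran from 532 to 762 CPM (median 566) in the 6 R182C-TgN3 mice and was at 680, 604, 637, 704 and 614 CPM in the WT-TgN3 mice, with a log2 fold change of -0.07 ± 0.11 (SE, edgeR adjusted p = 1.00). In PC it ran from 841 to 1294 CPM (median 1056) in R182C-TgN3 mice and was at 924, 1059, 1048 and 1221 CPM in 4 WT-TgN3 mice, with a log2 fold change of 0.06 ± 0.15 (SE, edgeR adjusted p = 0.994). The ranges overlapped in both cell types. Counted together, NOTCH3 and Notch3 were at 851 ± 86.3 CPM (SD, n = 6) in R182C-TgN3 and 688 ± 51.3 CPM (SD, n = 5) in WT-TgN3 SMC (exact permutation test, two-sided, p = 0.0130, adjusted p = 0.0325). In PC the sums were 2312 ± 501 (SD, n = 6) and 1559 ± 184 CPM (SD, n = 4; exact permutation test, p = 0.0333, adjusted p = 0.0556). These are 2 of 5 tests added after the levels were seen and adjusted together. The summed UMIs were not corrected for differences between the 2 transcripts.

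**Figure D2:**
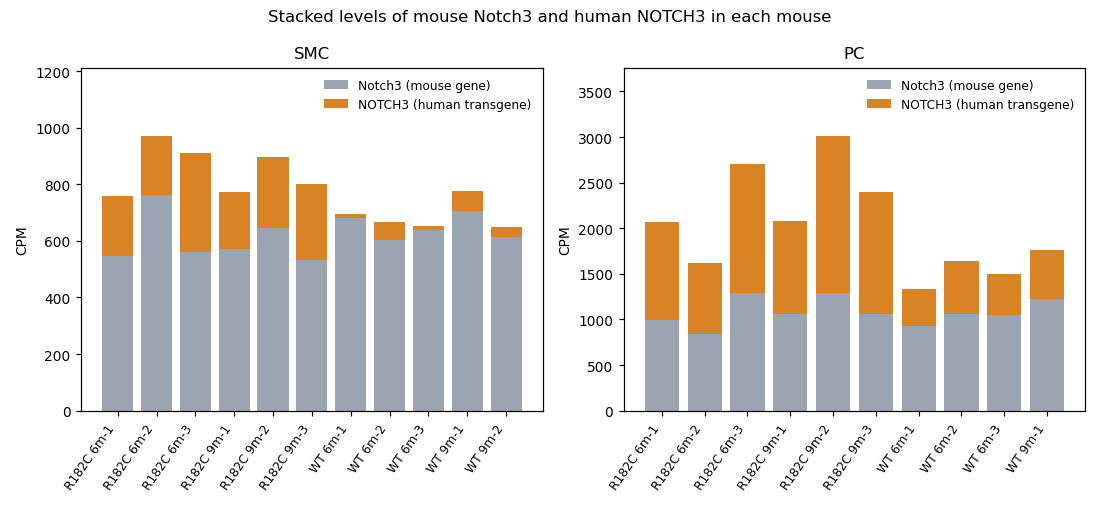
Stacked level (CPM) of mouse Notch3 (grey) and human NOTCH3 (orange) in SMC and PC, with 1 bar per mouse and no correction for differences between the transcripts. The ranges of the grey part overlap between the genotypes in both panels, and the orange part in SMC is at most 70.6 CPM in WT-TgN3 mice and at least 198 CPM in R182C-TgN3 mice.

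Within each mouse the transgene's share of all NOTCH3 and Notch3 UMIs needs no scaling to library size. It is a share of UMIs only, since these were not corrected for differences between the 2 transcripts. Over SMC and PC together it was 33.1%, 27.9% and 42.2% in R182C-TgN3 mice of 6 months and 30.5%, 37.0% and 44.9% in those of 9 months. In WT-TgN3 mice it was 7.46%, 12.2% and 10.1% at 6 months and 10.2% and 7.01% at 9 months. The lowest R182C-TgN3 share, of R182C-TgN3 6m-2, rested on 596 UMIs and had a 95% Wilson interval of 24.4% to 31.6%, and the highest WT-TgN3 share rested on 1860 UMIs and had one of 10.7% to 13.7%. These intervals cover counting error only. The means were 35.9% ± 6.69 (SD, n = 6) and 9.38% ± 2.13 (SD, n = 5), a difference of 26.5 percentage points (exact permutation test, two-sided, p = 0.00216, the smallest that 462 permutations can give). The difference was 25.2 points within batch 1, 20.7 within batch 3 and 32.1 within batch 4, and batch 2 held no WT-TgN3 mouse. With mice permuted within batches only, p was 0.0139 (exact permutation test, 72 permutations). The share over both types also depends on the mix of SMC and PC, which was not held fixed. For example, R182C-TgN3 9m-3 had 139 PC among 315 mural cells, and WT-TgN3 9m-1 had 21 among 370. Within SMC alone and PC alone the differences were smaller, 23.4 and 20.6 points.

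The share was higher in PC than in SMC in 10 of 10 mice, by 24.2 ± 4.53 percentage points (SD, n = 10; exact sign-flip permutation test, p = 0.00195, the smallest possible). In R182C-TgN3 mice NOTCH3 made up 29.2% ± 6.07 (SD, n = 6) in SMC and 52.4% ± 3.66 (SD, n = 6) in PC, and in WT-TgN3 mice 5.82% ± 3.43 (SD, n = 5) in SMC and 31.8% ± 2.49 (SD, n = 4) in PC. The genotypes differed by 23.4 points in SMC (exact permutation test, p = 0.00216) and by 20.6 points in PC (exact permutation test, p = 0.00476). The gap between PC and SMC was 23.1 points in R182C-TgN3 and 25.9 points in WT-TgN3 mice, and these gaps differed by -2.74 points (exact permutation test, p = 0.424, adjusted p = 0.467).

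**Figure D3:**
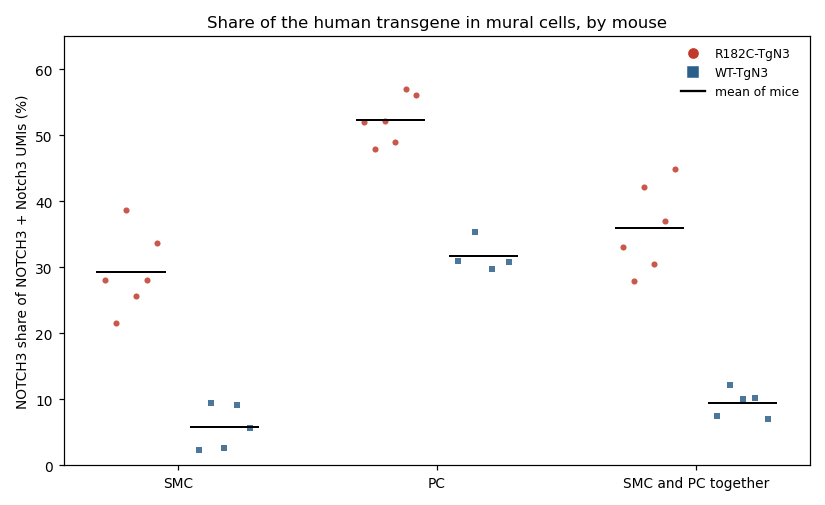
Share of human NOTCH3 (%) among all NOTCH3 and Notch3 UMIs in SMC, in PC and in both together, with 1 point per mouse and bars at the mean. The genotypes do not overlap in any of the 3 columns, and PC lie above SMC in both genotypes.

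As a ratio of levels, the step of NOTCH3 from SMC to PC differed between the lines. In R182C-TgN3 mice the PC level was 5.07, 3.72, 4.0, 5.13, 6.84 and 5.00 times the SMC level (6m-1 to 6m-3, then 9m-1 to 9m-3). In WT-TgN3 mice it was 25.8, 9.19, 26.4 and 7.69 times the SMC level (6m-1 to 6m-3, then 9m-1). The mean log2 ratio was 2.28 ± 0.309 (SD, n = 6) and 3.84 ± 0.910 (SD, n = 4), a difference of -1.56 (exact permutation test, two-sided, p = 0.00476, the smallest possible, adjusted p = 0.0238). The same ratio of mouse Notch3 was 1.1 to 2.31 in R182C-TgN3 and 1.36 to 1.75 in WT-TgN3 mice, a difference of 0.16 on the log2 scale (exact permutation test, p = 0.467). The 2 highest NOTCH3 ratios belonged to the WT-TgN3 mice with the fewest NOTCH3 UMIs in SMC, 12 in 6m-1 and 13 in 6m-3. The 7 pericyte markers in SMC summed to 1.79% to 2.82% of their mean level in PC. The gate itself limits this level, since SMC needed 80% or more SMC markers among their mural marker UMIs. The part of pericyte RNA in the SMC values of NOTCH3 was not tested. In WT-TgN3 SMC the 2 males, at 63.2 and 70.6 CPM, were above the 3 females, at 16.1 to 36.3 CPM, whereas in R182C-TgN3 mice the 2 males, at 212 and 251 CPM, lay within the range of the 4 females, 198 to 353 CPM.

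SMC differ in Rgs5, a gene known from pericytes, and NOTCH3 was also read in SMC with and without a UMI of it, a split made after the levels were seen and given without a test. NOTCH3 in CPM was higher in the SMC with Rgs5 in all 11 mice, for example 45.8 against 10.9 CPM in WT-TgN3 9m-2 and 419 against 217 CPM in R182C-TgN3 6m-3. The transgene's share was higher in the SMC with Rgs5 in 5 of 5 WT-TgN3 and 4 of 6 R182C-TgN3 mice. WT-TgN3 SMC without Rgs5 held few NOTCH3 UMIs, 1, 16 and 3 in 6m-1 to 6m-3 and 33 and 4 in 9m-1 and 9m-2. Notch3 was also at a higher level in the SMC with Rgs5 in every mouse, as in R182C-TgN3 6m-2 with 877 against 490 CPM.

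At 1 fixed depth, with each cell thinned to 2000 UMIs, 35.6% ± 7.56 (SD, n = 6) of R182C-TgN3 SMC and 7.11% ± 3.93 (SD, n = 5) of WT-TgN3 SMC had a NOTCH3 UMI (exact permutation test, p = 0.00216, adjusted p = 0.0866 over 40 tests). In PC the shares of cells were 86.2% ± 6.61 (SD, n = 6) and 55.3% ± 5.66 (SD, n = 4; exact permutation test, p = 0.00476, adjusted p = 0.0952). Without thinning they were 76.2% and 23.5% in SMC and 90.7% and 65.7% in PC. None of the 40 tests passed after adjustment, although the NOTCH3 ranges did not overlap in SMC (25.0% to 45.4% against 2.34% to 10.7%) or in PC (75.0% to 91.9% against 50.0% to 62.5%). The exact permutation p of NOTCH3 in SMC and PC were the smallest that 462 and 210 permutations can give. A single test at such a p could not pass alone after adjustment over 40 tests. Microglia, which should lack the gene, gave 0.108% and 0.0228%, with median depths from 4123 to 8314 UMIs against 5470 to 10281 in SMC. Thinning left out 15 R182C-TgN3 and 12 WT-TgN3 SMC, and 36 and 44 PC. A Notch3 UMI was found in 63.2% of R182C-TgN3 and 69.4% of WT-TgN3 SMC, and in 79.4% and 84.3% of PC. In the same thinned cells, both genes were found together in 16.7% to 28.9% of SMC of each R182C-TgN3 mouse and 1.56% to 8.02% of each WT-TgN3 mouse. In PC both were found in 60.0% to 81.1% and 37.5% to 54.2% of the cells.

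The paired fit of SMC against PC of the same mouse, over all genes and with mouse as a block, placed 3 members lower and 1 higher in SMC. At this threshold 3407 of 6080 genes were called, 56.0% of those tested, so a call here is common. NOTCH3 had a log2 fold change of -2.39 ± 0.16 (SE, edgeR adjusted p = 5.3e-16), Notch1 of -1.83 ± 0.11 (SE, adjusted p = 2.6e-17) and Notch3 of -0.55 ± 0.09 (SE, adjusted p = 3.5e-06). Notch2 was higher in SMC, by 1.02 on the log2 scale (standard error 0.17, edgeR adjusted p = 3.4e-06). Notch4 had too few UMIs to be tested.

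Of the 36 other genes of the pathway, 22 were tested between SMC and PC, 8 higher and 7 lower in SMC. This was 68.2% called, against 56.0% of all genes tested. Their median log2 fold change was 0.02, against -0.010 over all genes. Among the target genes, Nrip2 was 3.36 ± 0.20 (SE) and Hes1 1.04 ± 0.10 (SE) higher on the log2 scale in SMC, whereas Heyl was at -0.58 ± 0.10 (SE, edgeR adjusted p = 6.9e-06), lower in SMC, and Hey2 did not pass, with 0.16 ± 0.11 (SE, edgeR adjusted p = 0.231). Furin, the protease that makes the first cut in the receptor, was also higher, by 1.01 ± 0.22 (SE), and so was the ligand Jag1, by 0.74 ± 0.14 (SE), the only ligand tested. The 3 largest differences towards PC were in the coactivator Maml2 (-1.49, standard error 0.11), the ADAM protease Adam10 (-1.17, standard error 0.15) and the gamma-secretase subunit Aph1b (-1.06, standard error 0.26). Rbpj did not pass, with -0.21 ± 0.14 (SE, edgeR adjusted p = 0.205).

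Along the endothelium, Notch1 and Notch4 were both highest in arterial and lowest in venous EC of the 3 subtypes compared. In arterial EC Notch1 was at 236, 239 and 254 CPM (R182C-TgN3 6m-1 to 6m-3), 283, 333 and 242 CPM (R182C-TgN3 9m-1 to 9m-3), 258, 265 and 275 CPM (WT-TgN3 6m-1 to 6m-3) and 275 and 304 CPM (WT-TgN3 9m-1 and 9m-2). Every one of these was above every capillary value, which ran from 140 to 180 CPM (median 156). Notch1 was higher in arterial than in capillary EC by 0.79 on the log2 scale (standard error 0.04, edgeR adjusted p = 3.1e-15) and lower in venous than in capillary EC by -0.27 ± 0.04 (SE, adjusted p = 3.2e-06). Notch4 ran from 101 to 145 CPM (median 128) in arterial, from 41.4 to 56.4 CPM (median 48.0) in capillary and from 11.4 to 36.3 CPM (median 23.8) in venous EC, without overlap between these subtypes. Its log2 fold change was 1.39 for arterial against capillary EC (standard error 0.05, edgeR adjusted p = 1.9e-16) and -0.96 for venous against capillary EC (standard error 0.08, adjusted p = 1.7e-10).

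In these 2 comparisons most genes were also called, 6197 of 10900 (56.9%) between arterial and capillary EC and 5925 of 10929 (54.2%) between venous and capillary EC. All 4 mouse genes passed in both, and NOTCH3 had too few UMIs to be tested. Notch2 had small differences, of -0.18 in arterial (standard error 0.07, edgeR adjusted p = 0.0486) and 0.22 in venous EC (standard error 0.08, adjusted p = 0.0181). In the exact permutation test of the order, the venous step of Notch2 did not pass (adjusted p = 0.0809). The arterial call was lost in 8 of 12 alternatives, with adjusted p up to 0.183, and in 9 of 11 fits without 1 mouse. The venous call was lost with a stricter gate (adjusted p = 0.141) and without R182C-TgN3 9m-3 (edgeR adjusted p = 0.0673).

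Of the 36 listed genes, 32 were tested between arterial and capillary EC, 17 higher and 8 lower in arterial EC. This was 78.1% called, against 56.9% of all genes tested. Their median log2 fold change was 0.20, against -0.021 over all genes. All 4 ligands tested were higher, Jag1 by 2.70 ± 0.05 (SE), Jag2 by 1.74 (0.04), Dll4 by 1.56 (0.06) and Dll1 by 0.51 (0.18). The targets Hey2, at 3.63 ± 0.18 (SE), Hey1, at 2.17 (0.07), and Nrarp, a feedback inhibitor, at 1.92 (0.10), were higher too, whereas the target Hes1 was lower by -0.21 (0.04). The largest differences in the other direction were in Maml3 (-0.93, standard error 0.09), in Lfng, a sugar transferase that modifies the receptors (-0.56, 0.09), and in Aph1a (-0.48, 0.05).

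Between venous and capillary EC 31 genes of the list were tested, 8 higher and 10 lower in venous EC. This was 58.1% called, near the 54.2% of all genes tested. Their median was -0.02, against -0.014 over all genes. Hey1 was at -4.42 ± 0.16 (SE), Dll4 at -2.48 (0.11) and Jag2 at -1.10 (0.05) on the log2 scale, so these 3 genes had the same order as Notch1 and Notch4. Dll1, at 2.20 ± 0.12 (SE), Lfng, at 1.24 (0.06), and the gamma-secretase subunit Psen2, at 0.98 (0.08), were higher in venous EC. Jag1 did not pass, with 0.09 ± 0.08 (SE, edgeR adjusted p = 0.353).

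Notch3 UMIs in endothelial cells were few and unevenly spread. In arterial EC Notch3 was at 9.22, 8.31, 13.1, 1.90, 7.89 and 2.36 CPM in R182C-TgN3 mice (6m-1 to 6m-3, then 9m-1 to 9m-3) and at 15.1, 1.66, 58.9, 3.21 and 2.80 CPM in WT-TgN3 mice (6m-1 to 6m-3, then 9m-1 and 9m-2). WT-TgN3 6m-3 stood apart with 63 of the 186 UMIs, and there the 24 mural markers summed to 1114 CPM, against 149 to 741 CPM in the other 10 mice. In capillary EC the same mouse had 5.18 CPM of Notch3 and 178 CPM of mural markers, both the highest of 11. In EC as a whole R182C-TgN3 6m-1 had 14.7 CPM of Notch3, 7.73 CPM of NOTCH3 and 656 CPM of mural markers, each the highest of 11. Rgs5 led the mural markers in arterial EC on average after the SMC marker Sncg, at 80.8 and 96.1 CPM, and no marker of the SMC, pericyte or common mural lists was at 0. The part of mural RNA or of mixed droplets in these UMIs was not tested.

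Notch3 passed the test between arterial and capillary EC, at 1.51 on the log2 scale (standard error 0.30, edgeR adjusted p = 1.7e-04), and stayed between 1.17 and 1.68 with each mouse left out. It also passed between venous and capillary EC, at 0.90 ± 0.22 (SE, edgeR adjusted p = 0.00138). In the exact permutation test of the order, this step did not pass (adjusted p = 0.138). With cell types taken from Leiden clusters the edgeR value was -0.48 (adjusted p = 0.119), and with doublets kept 0.33 (adjusted p = 0.189). The mural marker lists did not move alike. The median sum of SMC markers was 170 CPM in arterial, 47.1 CPM in capillary and 47.6 CPM in venous EC. That of pericyte markers was 19.0, 12.8 and 29.5 CPM, and that of common mural markers 73.3, 51.2 and 38.9 CPM. Sncg led the SMC markers in arterial EC, at 96.1 CPM, and also in fenestrated EC, at 131 CPM. The part of these markers' source cells in the Notch3 differences was not tested.

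**Figure D4:**
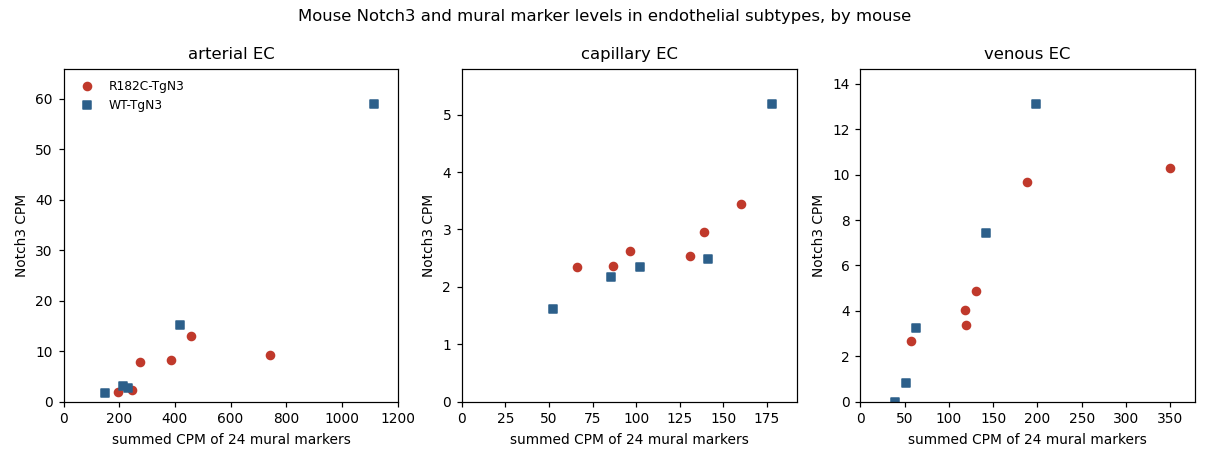
Level of mouse Notch3 (CPM) against the summed level of 24 mural markers (CPM) in arterial, capillary and venous EC, with 1 point per mouse and axes scaled to each subtype. WT-TgN3 6m-3 lies highest on both axes in arterial and capillary EC, at 58.9 CPM of Notch3 and 1114 CPM of markers in arterial EC.

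Between genotypes, 28 tests of members were possible over 7 cell types and NOTCH3 in SMC and PC were the 2 that passed. In EC, in arterial, capillary and venous EC and in microglia 0 genes were called (0% of 13083, 9662, 12151, 9929 and 10928 tested with edgeR), while 193, 204, 240, 298 and 124 had an unadjusted p under 0.05, and DESeq2 also called 0. Notch1 had a log2 fold change of 0.03 in SMC (standard error 0.12), 0.02 in PC (0.18), 0.01 in EC (0.08) and 0.16 in microglia (0.09), all with edgeR adjusted p = 1.00. Notch2 had one of -0.10 in SMC (standard error 0.15), -0.01 in EC (0.11) and -0.03 in microglia (0.12). Notch4 had one of -0.08 in EC (standard error 0.06), -0.04 in arterial (0.10) and -0.04 in venous EC (0.18). Notch3 in arterial EC was at -0.88 ± 0.74 (SE, edgeR adjusted p = 1.00), and at 0.46 without WT-TgN3 6m-3.

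NOTCH3 in EC was at 7.73, 1.74, 5.08, 0.585, 1.93 and 1.38 CPM in R182C-TgN3 mice and 1.1, 0.383, 0.868, 0.624 and 0.555 CPM in WT-TgN3 mice, in the usual order. The ranges overlapped through R182C-TgN3 9m-1. The log2 fold change was 2.22 ± 0.60 (SE, unadjusted p = 0.00274, edgeR adjusted p = 1.00) in EC and 1.39 ± 0.47 (SE, adjusted p = 1.00) in capillary EC, where the mural markers were also present at 52.5 to 178 CPM. Notch4 in SMC, Notch2 and Notch4 in PC, NOTCH3 in arterial and venous EC, and Notch3 and NOTCH3 in microglia had too few UMIs for the test.

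None of the 36 listed pathway genes was called in any genotype comparison, with 29 tested in SMC, 13 in PC, 34 in EC and 26 in microglia. Their median log2 fold change was -0.05 in SMC, -0.08 in PC, -0.03 in EC and 0.005 in microglia, against -0.003, 0.003, 0.006 and 0.007 over all genes tested. In SMC the 5 targets tested lay between -0.16 and 0.03 on the log2 scale, and the 2 ligands tested at -0.22 and -0.71. In PC the 3 targets tested lay between -0.10 and 0.02.

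**Figure D5:**
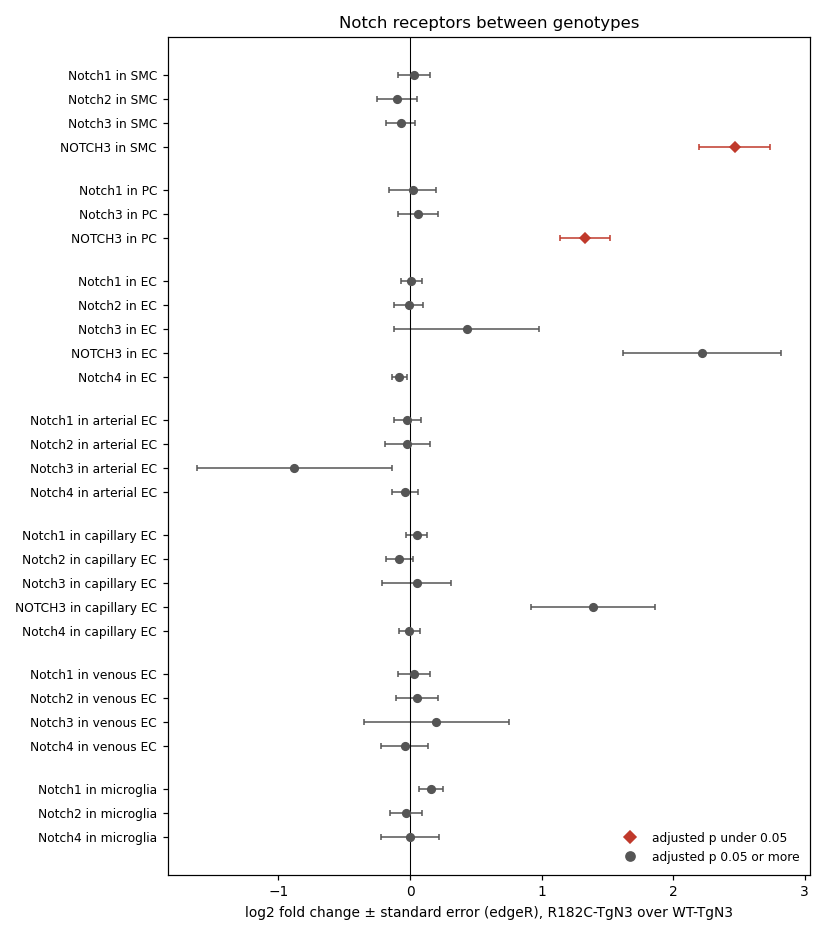
Log2 fold change of R182C-TgN3 over WT-TgN3 mice with its standard error for the 28 tests of Notch receptors in 7 cell types (edgeR). Red diamonds mark an adjusted p under 0.05, which NOTCH3 in SMC (2.47) and in PC (1.33) reached, and grey circles mark the other tests.

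The genotype difference of NOTCH3 was present at both ages. In SMC the log2 fold change was 2.76 ± 0.38 (SE) at 6 months and 2.16 ± 0.40 (SE) at 9 months, a difference of -0.60 ± 0.53 (SE, edgeR adjusted p = 1.00). In PC it was 1.20 ± 0.24 (SE) and 1.37 ± 0.36 (SE), a difference of 0.17 ± 0.43 (SE, edgeR adjusted p = 0.977), with 1 WT-TgN3 mouse at 9 months whose spread was taken from the other groups. Of the 16 member tests of a genotype by age interaction in SMC, PC, EC and microglia, 0 passed. Among all genes 0 of 9521, 3996, 13712 and 11536 passed in these types with edgeR (0%), and 217, 232, 244 and 274 had an unadjusted p under 0.05. The largest member value was -1.58 for NOTCH3 in EC (standard error 0.87, edgeR adjusted p = 1.00).

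Classes with few cells were summed over mice and have no replicate check, so their values carry exact Poisson 95% intervals that cover counting error only. The 94 fibroblasts of 9 mice had Notch2 at 62.3 CPM (49.5 to 77.3), Notch1 at 52.4 CPM (40.8 to 66.3), Notch3 at 25.8 CPM (17.9 to 36.1), Notch4 at 16.7 CPM (10.5 to 25.3) and NOTCH3 at 12.2 CPM (6.95 to 19.7). By genotype, fibroblast Notch3 was at 37.1 CPM (24.2 to 54.4, 26 UMIs) in R182C-TgN3 and 13 CPM (5.60 to 25.6, 8 UMIs) in WT-TgN3 mice, and NOTCH3 at 17.1 CPM (8.85 to 29.9, 12 UMIs) and 6.49 CPM (1.77 to 16.6, 4 UMIs). Notch2 was at 200 CPM (184 to 217) in 700 B cells, 123 CPM (96.1 to 156) in 120 perivascular macrophages and 123 CPM (113 to 133) in 232 choroid plexus cells. In B cells Notch2 is known for its role in marginal zone B cells. By Leiden clusters, 82 of the fibroblasts were in the fibroblast cluster, 11 in arterial EC and 1 in PC. Of the choroid plexus cells 89 were in the choroid plexus cluster and 143 in clusters with no type. Of the perivascular macrophages 103 were in their own cluster and 17 in microglia. The part of other cells or their RNA in these pooled values was not tested. In perivascular macrophages 0 Notch4 UMIs were counted, and 3 counts, the limit taken for a count of 0, would have been 5.37 CPM.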

How the data were processed

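Single-cell RNA sequencing of CD31-captured brain microvascular cells was analysed from 6 R182C-TgN3 and 5 WT-TgN3 mice. Per the labels and the paper's methods, the authors used Cell Ranger 7.0.0 with an mm10 reference to which the human NOTCH3 gene had been added, and deposited UMI counts per gene and called barcode without normalization. The deposited counts were whole numbers. How reads common to NOTCH3 and Notch3 were split is not given in the sources used here.

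Barcodes needed 500 detected genes or more and no more than 10% of UMIs from mitochondrial genes, and 3046 of 61625 were removed by simulated-doublet score (0.8% per 1000 barcodes). A cell took a class if it had at least 3 of the class's markers, at least 20% of the typical level of those markers and no other class above 33% of its own score. Mural cells were SMC at 80% or more SMC marker UMIs and PC at 30% or less, with 58 cells between these limits. EC took a subtype at 60% of at least 5 subtype marker UMIs, and 9195 EC had a leading share between 50% and 70%. Of the kept cells, 1463 had a barcode that another library shared. The sharing was uneven, with the most, 168, between R182C-TgN3 6m-1 and 6m-2, each of which shared 135 with WT-TgN3 6m-3. The libraries of a group are separate mice.

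UMIs were summed per mouse and type (at least 20 cells), passed through filterByExpr and TMM scaling, and compared by the quasi-likelihood test of edgeR 4.0.16 (R 4.3.3) with Benjamini-Hochberg adjustment over all genes tested. As the study did, genes of ribosomal proteins, mitochondrial genes and those named Gm or Rik were not tested. The study's DESeq2 (1.42.0 here) was an alternative. CPM are counts per 1e6 UMIs of the summed type. Single values were compared by two-sided exact permutation tests over mice. Detection used cells thinned to 2000 UMIs. Intervals and floors (3 counts) cover counting error only. The other steps ran in Python 3.11.15 (pandas 2.3.3, scipy 1.17.1, numpy 2.4.6, leidenalg 0.10.2, igraph 0.11.9), and the edgeR steps were tested on simulated data.

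The genes named are the 5 members, the 5 genes most like each (reaching 10 CPM in a type and in no marker list; 1 of them is not reported here), every pathway gene past the threshold between genotypes, and the 3 largest in each direction between cell types. Jag1, Dll1, Jag2, Dll4, Hes1, Nrarp and Rbpj outside that rule were named after their values were seen, to complete a group. Heyl and Hey2 between SMC and PC were also named outside that rule. The members, lists and tests were chosen with earlier results of these data known, and 5 exact tests, the split of SMC by Rgs5, the fits without shared barcodes and the tests of fixed neighbouring pairs were added after the levels were seen.

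Pairing mice by age and by the number in their label gave 5 pairs across genotypes. Only in microglia did deviations from the genotype mean correlate across genes in every pair (r from 0.140 to 0.477). The block changed no call there. In the other types the lowest r was negative, so the numbers were not taken to pair the mice. Alternatives were other scalings and filters, other gates, Leiden clusters (resolution 2.0), covariates for batch or sex, and each mouse left out.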

Additional observations from a re-analysis of the deposited data

Results flagged for a closer look

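In 9 of 86 groups of 4 to 6 mice, 1 mouse stood far from the others by Dixon's criterion. Its rate by chance, about 1 in 20, holds for independent groups of normally distributed values. The groups here overlap, as EC include their subtypes, and some hold few UMIs. The count of 9 can therefore not be set against that rate. Notch3 in arterial EC was 58.9 CPM in WT-TgN3 6m-3 (63 UMIs) and 1.66 to 15.1 CPM in the other WT-TgN3 mice. In capillary EC the same mouse had 5.18 CPM of Notch3 (45 UMIs), against 1.61 to 2.48 CPM. The summed level of the mural markers was also highest in this mouse in both subtypes, and its part was not tested. In EC as a whole Notch3 was 14.7 CPM in R182C-TgN3 6m-1 (235 UMIs), against 2.03 to 6.63 CPM in the other R182C-TgN3 mice, and that mouse also had the most mural marker RNA, at 656 CPM.

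NOTCH3 in capillary EC was 1.24 CPM in WT-TgN3 6m-1 (8 UMIs), against 0.372 to 0.575 CPM. In fenestrated EC the only NOTCH3 UMIs were 1 in R182C-TgN3 6m-3 (1.51 CPM) and 1 in WT-TgN3 9m-2 (0.540 CPM), too few to read. NOTCH3 in microglia was 1.95 CPM in R182C-TgN3 9m-3 (17 UMIs), the only mouse of batch 2, against 0.322 to 0.762 CPM. Notch4 in venous EC was 32.4 CPM in R182C-TgN3 6m-1 (69 UMIs), against 20.7 to 24.1 CPM. Notch4 in PC was 0 CPM in WT-TgN3 6m-1, against 23.5 to 25.6 CPM in the 3 other WT-TgN3 mice, with 8 UMIs among all 4.

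The log2 ratio of the NOTCH3 level in PC to that in SMC differed between the genotypes by -1.56 (exact permutation test, p = 0.00476, adjusted p = 0.0238), with the higher ratio in 4 of 4 WT-TgN3 mice.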

How the results depend on the processing

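NOTCH3 kept its direction and its call between genotypes in SMC (log2 fold change 2.39 to 2.62 over 14 alternatives, 2.30 to 2.72 with each mouse left out) and in PC (1.11 to 1.73 and 1.23 to 1.44). In PC the number of genes called was 16 with no filter, 3 with batch as a covariate and 1 to 2 with each mouse left out. The precision of Notch4 in PC is limited by its 39 UMIs in 10 mice. The number of neighbouring pairs past the threshold was 19 to 21 over 8 alternatives and 18 to 24 with each mouse left out, but the pairs were not the same ones. With the 30 pairs held fixed, 8 calls changed with the mean over cells of CPM, 7 with Leiden clusters, 5 with the looser gate, 4 with the stricter gate and 5 without WT-TgN3 9m-2. The mean over cells lost Notch2 from capillary to arterial EC (adjusted p = 0.176) and from arterial to fenestrated EC (0.158, exact permutation tests), and Notch4 from PC to microglia lost its call in 9 of 11 tests without 1 mouse (up to 0.0617). The mean over cells moved Notch3 in microglia to 1.36 CPM. No cause of these changes was tested.

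Of the mice in pairs, 1 of 10 in SMC, 2 of 8 in PC, 2 of 10 in EC and 7 of 10 in microglia correlated best with the mouse of their own age and number, a hint from the data only. With these pairs as a replicate block, the difference in transgene share was 24.7 points (exact permutation test, p = 0.0625, the smallest that 5 pairs allow). In PC 9 genes were called, and no call on a member between genotypes changed. The block gave -0.04 for Notch1 and -0.01 for Notch3 in PC, -0.01 for Notch1 and 0.02 for Notch2 in EC, 0.03 for Notch2 in arterial EC, and -0.01 for Notch1 and 0.002 for Notch4 in venous EC.

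Among uncalled genotype differences near 0 the sign turned as follows (log2). With batch as a covariate, Notch1 was -0.0028 and Notch2 0.02 in EC, Notch2 0.04 in arterial EC, Notch1 -0.01 and Notch4 0.03 in venous EC. Leiden clusters gave Notch2 0.08 and Notch3 0.19 in arterial EC, Notch3 -0.05 in capillary EC, and Notch1 -0.02 and Notch2 -0.15 in venous EC. The stricter gate gave Notch1 0.02 in arterial, Notch3 -0.05 in capillary and Notch4 0.16 in venous EC. Doublets kept gave Notch2 0.00073 in EC and Notch4 0.02 in microglia, where no filter gave 0.01. Notch2 in arterial EC was 0.01 with 20% mitochondrial UMIs and 0.01 with sex as a covariate. Without thinning, the share of PC with a Notch3 UMI differed by 4.47 points.

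Between types, Notch2 in arterial against capillary EC lost its call with DESeq2's size factors (-0.18), DESeq2 (-0.18), all genes (-0.16), a stricter gate (-0.17), 1000 genes (-0.17), 20% mitochondrial UMIs (-0.18), shared barcodes left out (-0.18) and no replicate block (-0.19). In venous EC it lost it with a stricter gate (0.20). Notch3 in venous EC was -0.48 with Leiden clusters.

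With each mouse left out, differences between genotypes ran from -0.01 to 0.09 for Notch1 in SMC, -0.05 to 0.09 for Notch1 and -0.0046 to 0.13 for Notch3 in PC, -0.03 to 0.05 for Notch1, -0.09 to 0.03 for Notch2 and -0.10 to 0.95 for Notch3 in EC, -0.08 to 0.02 for Notch1, -0.12 to 0.05 for Notch2 and -1.24 to 0.46 for Notch3 in arterial EC. They ran from -0.11 to 0.36 for Notch3 and -0.06 to 0.03 for Notch4 in capillary EC, -0.04 to 0.08 for Notch1, -0.05 to 0.11 for Notch2, -0.14 to 0.98 for Notch3 and -0.14 to 0.09 for Notch4 in venous EC, and -0.10 to 0.05 for Notch2 and -0.09 to 0.07 for Notch4 in microglia. Notch2 ran from -0.20 to -0.15 in arterial and 0.17 to 0.25 in venous against capillary EC, and the transgene share from 24.7 to 28.2 points.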
